A study of Homo sapiens with 12 samples.

Results

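The genes of heme breakdown and iron handling were followed in HLE-B3, a human lens epithelial line that has been immortalized, after H2O2 and after loss of ATG7, a protein needed to build autophagosomes. The members were the 10 rows of the deposited tables, of 58735 in all, whose gene name was HMOX1, HMOX2, BLVRB, FTL, FTH1, TFRC, SLC40A1, SLC11A2, ACO1 or IREB2. By role they comprise 3 genes of heme breakdown, 2 of iron storage, 3 of iron transport and 2 of iron sensing. They were grouped by function, with earlier results of these data known.

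Total RNA was sequenced in 12 libraries, 3 biological replicates for each of 4 conditions. These were wild type (WT) cells untreated at 0 h, WT cells after 200 μM H2O2 for 12 h, Atg7KO cells untreated at 0 h, and Atg7KO cells after 200 μM H2O2 for 12 h. All were grown in DMEM/F12 with FBS. The titles place the untreated cells at 0 h, while the study's methods name cells with or without H2O2 for 12 h. Whether untreated cells were also kept for 12 h is not clear, so H2O2 and time in culture cannot be told apart here. The Atg7KO cells came from CRISPR/Cas9 editing, and the labels do not say which clone was sequenced, so genotype and clone cannot be told apart.

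Heme oxygenases open the heme ring and release iron, carbon monoxide and biliverdin, which biliverdin reductases turn into bilirubin. Free iron is stored in shells of ferritin light and heavy chains, enters cells through the transferrin receptor and leaves them through ferroportin. The 2 iron regulatory proteins, encoded by ACO1 and IREB2, bind hairpins called iron-responsive elements when iron is scarce. There they block translation of transcripts with the hairpin in the 5′ UTR and stabilize the TFRC transcript through hairpins in its 3′ UTR. Ferritin itself reaches the lysosome by autophagy, with NCOA4 as its receptor.

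The hairpins are shown because, in the members that hold them, they lie either in the 5′ UTR or in the 3′ UTR. They were searched over the whole length of GENCODE release 29 protein-coding transcripts on GRCh38, on the transcript strand only. The pattern was a C and the 6-base loop CAGTGN with 5 bases between them. All 5 had to pair with the 5 after the loop, and at least 4 of the 6 pairs below the C had to form. Every match in a member lay in a UTR. The 6 capitals mark the loop. TFRC held 4 such elements, all in the last of its 19 exons, in the 3′ UTR on the minus strand. FTL held 1 in the 5′ UTR in exon 1 of 4, on the plus strand, and SLC40A1 held 1 in the 5′ UTR in exon 1 of 8, on the minus strand.
TFRC, chr3:196050463-196050491: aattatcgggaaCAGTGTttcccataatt
TFRC, chr3:196050510-196050538: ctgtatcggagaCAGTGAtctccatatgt
TFRC, chr3:196050575-196050603: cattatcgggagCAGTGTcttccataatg
TFRC, chr3:196050979-196051007: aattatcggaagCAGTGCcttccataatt
FTL, chr19:48965335-48965363: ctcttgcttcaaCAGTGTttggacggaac
SLC40A1, chr2:189580661-189580689: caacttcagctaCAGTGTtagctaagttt
FTH1 also held 1 in its 5′ UTR. Thus 4 of the 10 members matched, against 44 of 19702 protein-coding genes (0.223%) with a match anywhere in a transcript. A match is a description of letters and pairing, and none in the other 6 members says only that this pattern is not in their annotated transcripts.

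Sequencing depth was even, with 15602183 to 17659496 reads counted on genes per library. Levels are given as FPKM, the reads of a gene scaled by its length and by the library total. Untreated Atg7KO replicate 1 stood apart, with a mean correlation of log2 values with its 2 mates of 0.974. The libraries of the other 3 groups correlated with their mates at 0.991. In that library the level over the mean of its mates had a median of 1.39 for genes of 1001 to 2000 bases and of 0.758 for genes over 8000 bases. Results that rest on it are given with and without it. ATG7 itself was not lower in Atg7KO cells, at 2.55 ± 0.313 FPKM (SD, n = 3) in untreated WT and 3.55 ± 0.205 FPKM in untreated Atg7KO cells. With H2O2 it was at 1.96 ± 0.0411 FPKM in WT and 2.19 ± 0.137 FPKM in Atg7KO libraries, so its RNA level does not check the labels. Of 10 markers listed for lens epithelium, SIX3 and CRYGS had a mean above 1 FPKM over all 12 libraries, and CRYGS is a gamma crystallin, a family known from lens fibers. By group, PAX6 had a mean above 1 FPKM in untreated WT (1.27) and untreated Atg7KO (1.02) cells, and CRYAB in treated WT cells (1.65). Over all 12 libraries a mean above 1 FPKM was found in 0 of 5 markers of lens fibers and 0 of 8 erythroid markers. It was found in 1 of 6 macrophage and 4 of 7 fibroblast markers. The summed level of 7 fibroblast markers was 623 to 655 FPKM in untreated WT, 270 to 287 in H2O2-treated WT, 360 to 512 in untreated Atg7KO and 247 to 257 in H2O2-treated Atg7KO libraries. Of these sums COL1A1 made up 626 ± 17.2 FPKM in untreated WT, 272 ± 8.95 in treated WT, 437 ± 84.4 in untreated Atg7KO and 243 ± 4.56 in treated Atg7KO cells. LUM had means of 0.168 FPKM in untreated WT against 9.52 FPKM in untreated Atg7KO cells and of 0.129 against 3.93 FPKM with H2O2. PDGFRB was at 4.42 against 6.34 FPKM before treatment and at 2.07 against 1.69 FPKM with H2O2. COL1A2 was at 5.42 against 4.20 FPKM before treatment and at 2.60 against 3.10 FPKM with H2O2. COL3A1, PDGFRA and DCN were below 1 FPKM in every group. The part of these genes in the results below was not tested.

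**Figure D1:**
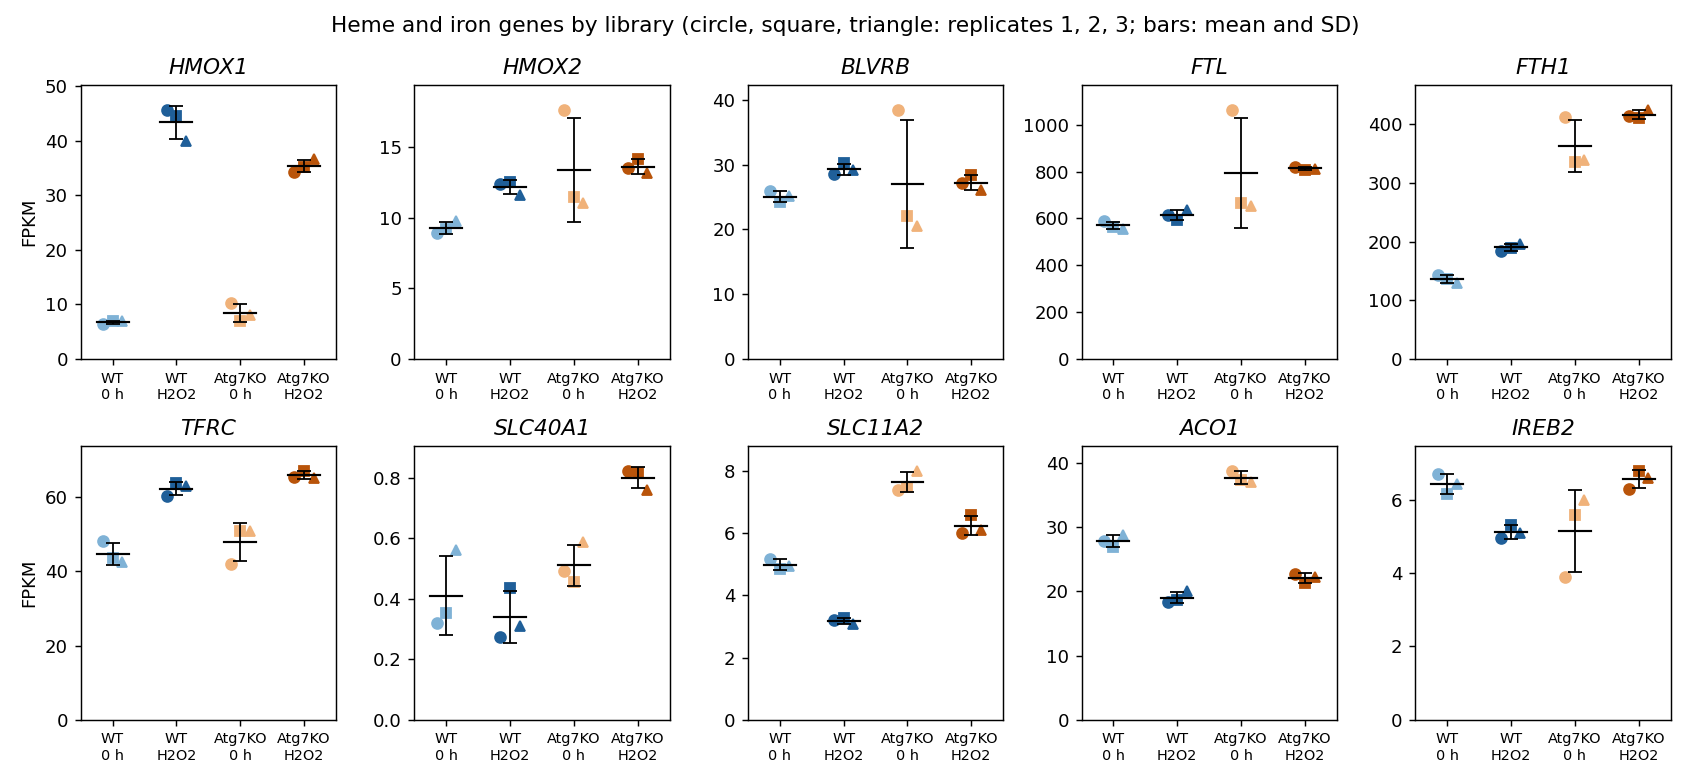
FPKM of the 10 members in each of the 12 libraries, with circles, squares and triangles for replicates 1, 2 and 3 and black bars for the mean and SD of each group of 3. HMOX1 is high in both H2O2-treated groups, FTH1 is high in both Atg7KO groups, and untreated Atg7KO replicate 1 (circle) lies above its mates for HMOX2, BLVRB and FTL and below them for IREB2.

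The first question was how WT cells responded to H2O2. HMOX1, the inducible heme oxygenase, rose 6.38-fold, while the ferritin heavy chain gene FTH1 and the transferrin receptor gene TFRC rose 1.39-fold each. The iron importer gene SLC11A2 and the iron sensors ACO1 and IREB2 fell. Of the 10 members, 8 were called at an adjusted p under 0.01 over all genes by edgeR's quasi-likelihood test, 5 of them higher and 3 lower. Of all 15913 genes tested, 61% were called, 30.9% higher and 30.1% lower. The FPKM of the groups did not overlap in 9 of 10 members and in 71.4% of all genes tested. Only HMOX1 also changed beyond 1 on the log2 scale with a mean FPKM above 1, as did 12.5% of all genes. The median log2 fold change of the members was 0.16, against -0.01 for all genes tested.

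Among the genes of heme breakdown, HMOX1 had 6.47, 6.92 and 6.91 FPKM in the 3 untreated WT libraries and 45.6, 44.5 and 39.9 FPKM with H2O2. Every treated library lay far above every untreated one. The log2 fold change was 2.67 (SE 0.07, adjusted p = 1.36e-34). HMOX2, the constitutive heme oxygenase, had 8.94, 9.19 and 9.74 FPKM untreated and 12.4, 12.5 and 11.6 FPKM with H2O2. The groups did not overlap, and it rose by 0.39 on the log2 scale (SE 0.07, adjusted p = 1.39e-06). HMOX2 lies on 21074 bases shared with NMRAL1 on the opposite strand, a gene with 289 to 731 reads per library. The strand setting of the counting is not given in the sources used here, so reads of the pair may be mixed. BLVRB, a biliverdin reductase, had 25.9, 24.2 and 25.1 FPKM untreated and 28.6, 30.2 and 29.1 FPKM treated, a log2 fold change of 0.22 (adjusted p = 0.0017). The BLVRB call was lost without untreated WT replicate 2 (adjusted p = 0.0175), untreated WT replicate 3 (0.0103) or treated WT replicate 2 (0.0135), with DESeq2 (0.016) and without a filter on low counts (0.0205), and the log2 fold change was 0.03 after a correction for gene length.

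The ratio of HMOX1 to HMOX2 compares both oxygenases per length within a library. It was 0.728 ± 0.0223 in untreated WT cells and 3.55 ± 0.124 with H2O2 (SD, n = 3). The inducible form thus went from below to above the constitutive one in all 3 treated libraries. The exact two-sided permutation test gave p = 0.10, the smallest that 3 against 3 allows, and 0.133 after adjustment over 12 ratio tests.

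Of the ferritin chains, FTL had 588, 565 and 557 FPKM in untreated WT libraries and 616, 594 and 637 FPKM with H2O2. FTL was among the 27 highest genes by FPKM in every library. Its log2 fold change of 0.11 (95% interval 0.02 to 0.19) did not pass the test (adjusted p = 0.021), and it was -0.10 after the correction for gene length. FTH1, whose chain carries the ferroxidase activity of ferritin, had 142, 137 and 130 FPKM untreated and 184, 190 and 197 FPKM treated. Treated and untreated libraries were well separated, with a log2 fold change of 0.47 (SE 0.04, adjusted p = 2.05e-13), and of 0.30 after the correction for gene length. The FTL to FTH1 ratio went from 4.18 ± 0.0819 to 3.24 ± 0.114, without overlap (exact permutation p = 0.10, adjusted 0.133).

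Among the transporters, TFRC, which takes up transferrin-bound iron, had 48.1, 43.6 and 42.5 FPKM untreated and 60.2, 63.7 and 63.0 FPKM with H2O2. It rose by 0.47 on the log2 scale (SE 0.04, adjusted p = 2.57e-13), and by 0.65 after the correction for gene length, and the groups did not overlap. SLC11A2, the divalent metal transporter that moves iron out of endosomes, had 5.17, 4.84 and 4.96 FPKM untreated and 3.20, 3.26 and 3.08 FPKM treated. It fell by 0.65 (SE 0.07, adjusted p = 2.15e-12). SLC40A1, which encodes ferroportin, had only 20 to 43 reads in the 6 WT libraries. Its difference of -0.29 had a 95% interval from -0.90 to 0.33, so a change of a size within that interval was not detectable at this depth. The TFRC to FTH1 ratio was 0.328 ± 0.00914 untreated and 0.328 ± 0.0076 with H2O2 (exact permutation p = 0.9). The equal ratios depend on the setting, because after the correction for gene length TFRC rose by 0.65 and FTH1 by 0.30.

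Of the iron sensors, ACO1, the cytosolic aconitase that becomes iron regulatory protein 1 without its iron-sulfur cluster, had 27.8, 26.9 and 28.7 FPKM untreated and 18.3, 18.7 and 20.1 FPKM treated. It fell by 0.55 on the log2 scale (SE 0.05, adjusted p = 1.49e-14). IREB2, iron regulatory protein 2, had 6.71, 6.15 and 6.42 FPKM untreated and 4.95, 5.32 and 5.10 FPKM treated. Neither gene's groups overlapped. IREB2 fell by 0.33 (SE 0.06, adjusted p = 1.62e-06), and by 0.08 after the correction for gene length, where the call was lost (adjusted p = 0.237). With all 12 libraries in 1 fit, IREB2 (adjusted p = 0.0394), HMOX2 (0.0373) and BLVRB (0.32) lost their calls.

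**Figure D2:**
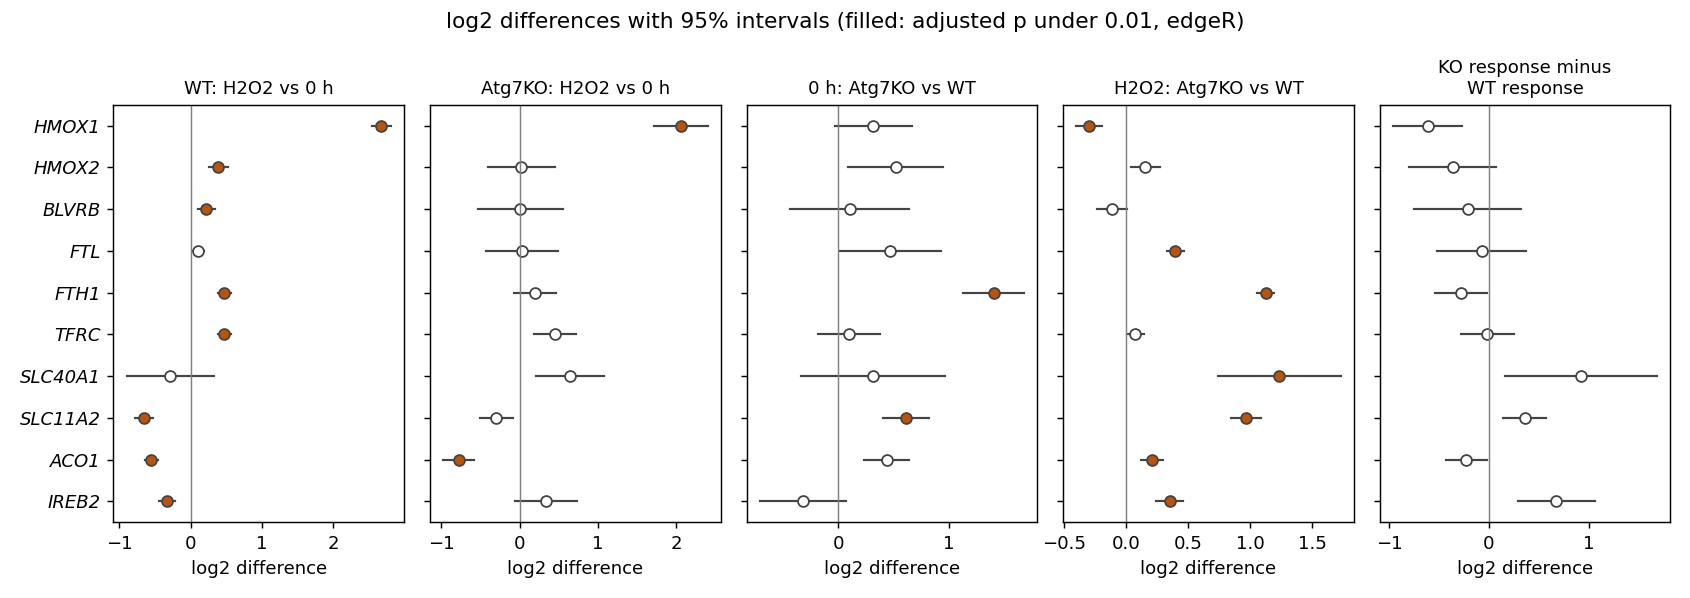
log2 differences of the 10 members in the 4 comparisons of groups, and the Atg7KO minus WT difference in response, with 95% intervals from edgeR on an x axis of its own in each panel. Filled points have an adjusted p under 0.01. HMOX1 stands out in both H2O2 responses and FTH1 in the comparison of untreated Atg7KO with WT. With H2O2, SLC40A1, FTH1 and SLC11A2 lie furthest from 0 in Atg7KO against WT, and no point is filled in the last panel.

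The next question was the response of Atg7KO cells. HMOX1 rose 4.17-fold and ACO1 fell to 0.583 of its untreated level, and these 2 of the 10 members were called. Of all 15475 genes tested, 26% were called, 13.6% higher and 12.4% lower. The groups did not overlap in 6 of 10 members and in 59.6% of all genes tested. HMOX1 alone passed all 3 thresholds, as did 11.2% of all genes. Without untreated Atg7KO replicate 1, 9 of 10 members were called, 7 higher and 2 lower, and 58.4% of all 16002 genes tested.

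HMOX1 had 10.3, 7.05 and 8.09 FPKM in untreated Atg7KO libraries and 34.3, 35.2 and 36.6 FPKM with H2O2. Its log2 fold change was 2.06 (SE 0.14, adjusted p = 8.37e-05). The HMOX1 to HMOX2 ratio was 0.643 ± 0.0779 untreated and 2.60 ± 0.163 treated, again without overlap (exact permutation p = 0.10). ACO1 had 38.8, 37.3 and 37.0 FPKM untreated and 22.7, 21.2 and 22.2 FPKM treated. The groups were far apart, and ACO1 fell by 0.78 (SE 0.08, adjusted p = 0.000479).

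For HMOX2, BLVRB and FTL the outlying library set the value. HMOX2 had 17.6, 11.4 and 11.1 FPKM untreated and 13.5, 14.2 and 13.1 FPKM treated, with a log2 fold change of 0.02 in all libraries and 0.26 without replicate 1 (adjusted p = 0.000132). BLVRB had 38.4, 22.1 and 20.6 FPKM untreated and 27.1, 28.4 and 26.0 FPKM treated, a log2 fold change of 0.01 that became 0.34 (adjusted p = 3.98e-06). FTL had 1064, 664 and 652 FPKM untreated and 820, 809 and 812 FPKM treated, a log2 fold change of 0.03 that became 0.29 (adjusted p = 4.48e-18). Each treated library lay between replicate 1 and its mates in all 3 genes.

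FTH1 had 413, 336 and 339 FPKM untreated and 414, 411 and 425 FPKM with H2O2, a log2 fold change of 0.20 (95% interval -0.07 to 0.46, adjusted p = 0.2) and of 0.29 without replicate 1 (adjusted p = 1.91e-18) and 0.36 with the length correction (0.00916). TFRC had 41.9, 51.0 and 50.9 FPKM untreated and 65.5, 67.2 and 65.1 FPKM treated. Its groups did not overlap, but the log2 fold change of 0.45 missed the threshold (adjusted p = 0.0165). TFRC passed it with DESeq2 (adjusted p = 0.00169), with all 12 libraries in 1 fit (0.000767), with the length correction (0.00417) and without replicate 1, at 0.36 (2.08e-23). SLC11A2 had 7.40, 7.50 and 8.01 FPKM untreated and 6.02, 6.59 and 6.11 FPKM treated, a log2 fold change of -0.30 (adjusted p = 0.0322), and -0.33 without replicate 1 (6.28e-09), and it also passed with all 12 libraries in 1 fit (0.00291).

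SLC40A1 had 35 to 47 reads untreated and 57 to 61 treated, or 0.490, 0.454 and 0.586 FPKM against 0.823, 0.815 and 0.759 FPKM. The libraries did not overlap, with a log2 fold change of 0.64 (95% interval 0.20 to 1.07, adjusted p = 0.0282). Without replicate 1 it was 0.60 (adjusted p = 0.0267), which is the only member not called there. IREB2 had 3.89, 5.57 and 5.99 FPKM untreated and 6.30, 6.79 and 6.58 FPKM with H2O2. All treated libraries lay above all untreated ones, and the log2 fold change was 0.34 (adjusted p = 0.142), or 0.17 without replicate 1 (0.00396).

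The level in untreated Atg7KO replicate 1 over the mean of its mates is given beside gene length. It was highest in BLVRB (1.80, gene length 1689 bases), FTL (1.62, 878 bases) and HMOX2 (1.57, 3793 bases). It was lowest in IREB2 (0.673, 10806 bases) and TFRC (0.822, 7887 bases). SLC11A2, at 10145 bases, had 0.955. The part of transcript length or RNA quality in these values was not tested.

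**Figure D3:**
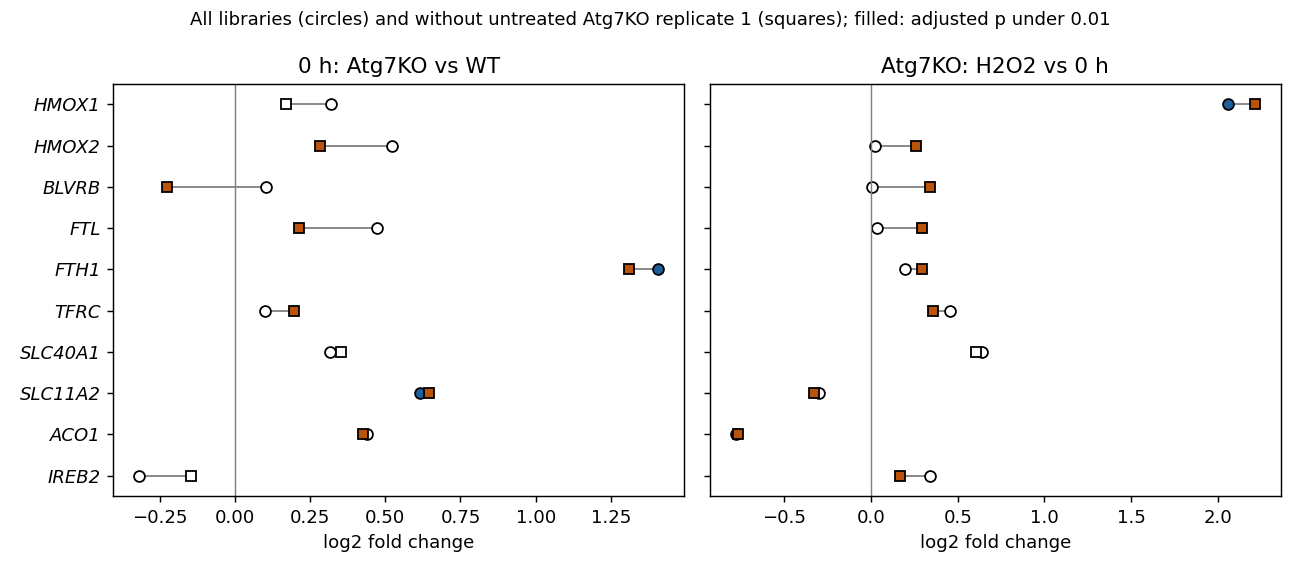
log2 fold changes of the 10 members with all libraries (circles) and without untreated Atg7KO replicate 1 (squares), for Atg7KO against WT at 0 h and for the H2O2 response of Atg7KO cells. Filled symbols have an adjusted p under 0.01. FTH1 and SLC11A2 in the left panel and HMOX1 and ACO1 in the right panel are filled either way, and BLVRB crosses 0 in the left panel.

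The third question was how Atg7KO cells differed from WT cells before treatment. FTH1 was 2.65-fold and SLC11A2 1.53-fold higher in untreated Atg7KO cells, and these 2 of 10 members were called, against 7.7% of all 15357 genes tested, 4.42% higher and 3.28% lower. Untreated Atg7KO and WT libraries did not overlap in 7 of 10 members and in 45.3% of all genes tested. The order of FTH1 groups from low to high was untreated WT, treated WT, untreated Atg7KO and treated Atg7KO, and only the last 2 neighbours overlapped. FTH1 passed all 3 thresholds, as did 3.5% of all genes. Without replicate 1, 7 members were called, 6 higher and 1 lower, and 36.2% of all 15848 genes tested.

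FTH1, at 142, 137 and 130 FPKM in WT against 413, 336 and 339 FPKM in Atg7KO, had a log2 difference of 1.41 (SE 0.12, adjusted p = 0.00047), and of 1.31 without replicate 1 (8.14e-91). FTL went from 588, 565 and 557 to 1064, 664 and 652 FPKM, a log2 difference of 0.47 (95% interval 0.02 to 0.93, adjusted p = 0.138), or 0.21 without replicate 1 (4.28e-06). The FTL to FTH1 ratio was 4.18 ± 0.0819 in WT and 2.16 ± 0.359 in Atg7KO cells. In each of the 3 Atg7KO libraries it lay below every WT library (exact permutation p = 0.10, adjusted 0.133). The TFRC to FTH1 ratio was 0.328 ± 0.00914 and 0.135 ± 0.0288, also without overlap.

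Ferritin has many processed pseudogenes, to which reads of the parent genes could be assigned. The 25 genes named FTH1P with a number held 1.42% to 3.67% as many reads as FTH1, the most in an untreated Atg7KO library. The 16 named FTLP held 0.0323% to 0.192% as many as FTL. BEST1, which overlaps FTH1 on the opposite strand, had at most 68 reads, where FTH1 had at least 4701.

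SLC11A2 had 5.17, 4.84 and 4.96 FPKM in WT and 7.40, 7.50 and 8.01 FPKM in Atg7KO, a log2 difference of 0.61 (SE 0.09, adjusted p = 0.00415). The call was lost on leaving out any of the other 5 libraries in turn (adjusted p 0.0166 to 0.0372) and held without Atg7KO replicate 1, while the difference itself stayed between 0.58 and 0.64. ACO1, at 27.8, 26.9 and 28.7 against 38.8, 37.3 and 37.0 FPKM, had a log2 difference of 0.44 that missed the threshold (adjusted p = 0.0142), and of 0.43 without replicate 1 (9.68e-18). ACO1 also passed with DESeq2 (adjusted p = 4.45e-05), with all 12 libraries in 1 fit (0.000282) and with the length correction (0.0056).

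The other members gave smaller or less certain differences. HMOX1 had a log2 difference of 0.32 (95% interval -0.03 to 0.67, adjusted p = 0.186), or 0.17 without replicate 1 (0.186). HMOX2 had 0.52 (adjusted p = 0.0925), or 0.28 without it (0.000447). BLVRB turned from 0.10 (adjusted p = 0.778) to -0.23 (0.00567). TFRC had 0.10 (adjusted p = 0.592), or 0.19 without replicate 1 (5.2e-05), SLC40A1 had 0.32 (0.46) and IREB2 -0.32 (0.23).

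The fourth comparison set Atg7KO against WT cells that had both received H2O2. FTH1 was 2.18-fold, SLC40A1 2.35-fold, SLC11A2 1.95-fold and FTL 1.31-fold higher in Atg7KO cells, IREB2 and ACO1 were higher by less, and HMOX1 was 0.812 of its WT level. In all, 7 of the 10 members were called, 6 higher and 1 lower, where 55.6% of all 15909 genes tested were, 27.7% higher and 27.9% lower. The FPKM of the groups did not overlap in 10 of 10 members and in 68% of all genes tested. FTH1 was the member that passed all 3 thresholds, as did 7.46% of all genes. The median log2 difference of the members was 0.28, and that of all genes tested 0.00.

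FTH1 had 184, 190 and 197 FPKM in treated WT libraries and 414, 411 and 425 FPKM in treated Atg7KO libraries. The log2 difference was 1.12 (SE 0.03, adjusted p = 4.38e-23), and it was 1.10 to 1.30 under the 12 other settings tried. FTL, at 616, 594 and 637 against 820, 809 and 812 FPKM, was higher by 0.39 (SE 0.03, adjusted p = 5.87e-12). The ratio of FTL to FTH1 RNA was 3.24 ± 0.114 in WT and 1.95 ± 0.0369 in Atg7KO cells, without overlap (exact permutation p = 0.10, adjusted 0.133).

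SLC11A2 had 3.20, 3.26 and 3.08 FPKM in WT and 6.02, 6.59 and 6.11 FPKM in Atg7KO, a log2 difference of 0.96 (SE 0.06, adjusted p = 3.43e-15). SLC40A1 had 0.272, 0.435 and 0.309 FPKM against 0.823, 0.815 and 0.759 FPKM, from 20 to 29 and 57 to 61 reads, a log2 difference of 1.24 (95% interval 0.74 to 1.73, adjusted p = 4.9e-05). Its level stayed below 1 FPKM in every library. TFRC, at 60.2, 63.7 and 63.0 against 65.5, 67.2 and 65.1 FPKM, differed by 0.07 (95% interval 0.01 to 0.14, adjusted p = 0.0539). The TFRC to FTH1 ratio was 0.328 ± 0.0076 in WT and 0.158 ± 0.00507 in Atg7KO cells.

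HMOX1 had 45.6, 44.5 and 39.9 FPKM in treated WT and 34.3, 35.2 and 36.6 FPKM in treated Atg7KO libraries. It was lower by 0.30 on the log2 scale (SE 0.05, adjusted p = 4.41e-06), but after the correction for gene length the difference was -0.15 and did not pass (adjusted p = 0.011). HMOX2 differed by 0.15 (adjusted p = 0.0218), but passed without a filter (0.00978) and with the length correction (0.00222), and BLVRB differed by -0.12 (0.0797). The HMOX1 to HMOX2 ratio was 3.55 ± 0.124 against 2.60 ± 0.163, without overlap (exact permutation p = 0.10, adjusted 0.133). IREB2, at 4.95, 5.32 and 5.10 against 6.30, 6.79 and 6.58 FPKM, was higher by 0.35 (SE 0.05, adjusted p = 8.76e-07). ACO1, at 18.3, 18.7 and 20.1 against 22.7, 21.2 and 22.2 FPKM, was higher by 0.21 (SE 0.04, adjusted p = 0.000102), and by 0.10 after the correction for gene length, where the call was lost (0.0389). With all 12 libraries in 1 fit, HMOX1 (adjusted p = 0.0415), FTL (0.0419), IREB2 (0.0371) and ACO1 (0.0209) lost their calls.

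**Figure D4:**
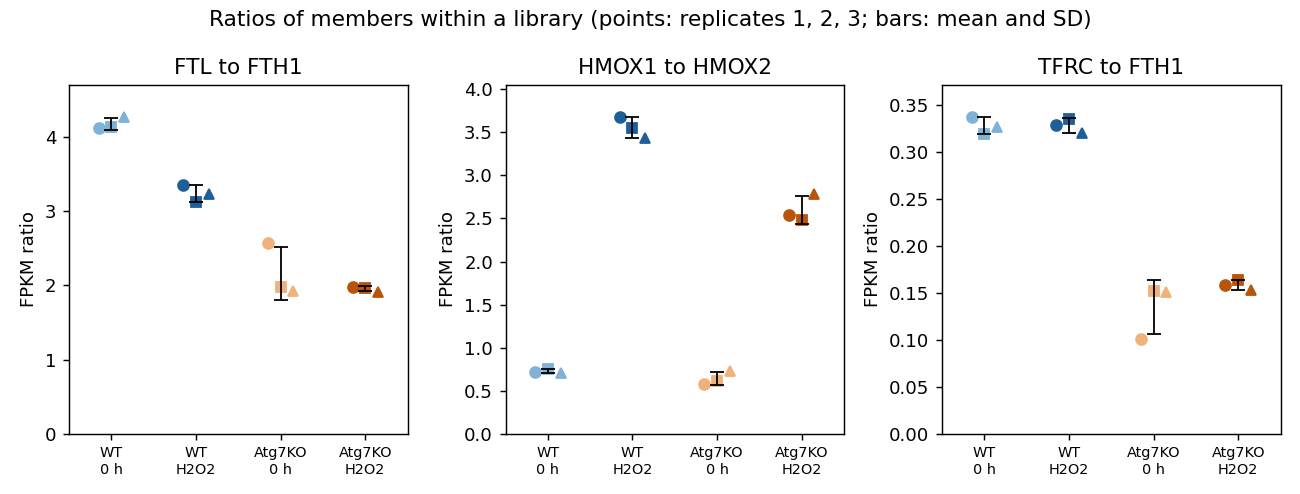
FPKM ratios of FTL to FTH1, HMOX1 to HMOX2 and TFRC to FTH1 in each of the 12 libraries, by group, with the mean and SD of 3 replicates. FTL to FTH1 and TFRC to FTH1 are lower in every Atg7KO library than in every WT library, and HMOX1 to HMOX2 is above 1 only in H2O2-treated libraries.

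The interaction of genotype and treatment, fitted over all 12 libraries, asked whether the H2O2 response itself depended on genotype. With edgeR 0 of 10 members were called, where 14% of all 16856 genes were, 7.02% higher and 7.01% lower. At an unadjusted p, 6 of 10 members were under 0.05, as were 42.6% of all genes. The nearest to the threshold were HMOX1, whose response was lower in Atg7KO cells by 0.61 on the log2 scale (SE 0.16, adjusted p = 0.0132), IREB2 (0.67 higher, SE 0.18, 0.0138) and SLC11A2 (0.36 higher, SE 0.10, 0.0178). DESeq2 called these 3, and edgeR without a filter on low counts called HMOX1 and IREB2.

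Without untreated Atg7KO replicate 1, 6 of 10 members were called, against 34.1% of all 17543 genes tested. HMOX1 (-0.45, adjusted p = 0.00015), FTH1 (-0.17, 0.00828) and ACO1 (-0.20, 0.00512) then had lower and FTL (0.20, 0.00119), SLC11A2 (0.34, 0.000694) and IREB2 (0.51, 9.21e-08) higher responses in Atg7KO cells. FTL had -0.07 with all libraries (adjusted p = 0.818). Under the correction for gene length with all libraries, HMOX1 had -0.33 (adjusted p = 0.0514) and IREB2 0.33 (0.026).

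IREB2 was the member whose libraries moved apart. All 3 treated WT libraries lay below all 3 untreated ones, at most 5.32 against at least 6.15 FPKM. All 3 treated Atg7KO libraries lay above all 3 untreated ones, at least 6.30 against at most 5.99 FPKM.

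The members with a matched hairpin did not share a direction. In H2O2-treated WT cells, TFRC, with 3′ elements, and FTH1, with a 5′ element, each rose by 0.47 on the log2 scale (0.65 and 0.30 after the correction for gene length), and FTL (0.11) and SLC40A1 (-0.29) did not pass the test. In treated Atg7KO against treated WT cells, all 3 members with a 5′ element were called higher, against 27.7% of all genes. FTH1 was higher by 1.12, and SLC40A1 by 1.24 at 20 to 61 reads per library. FTL was higher by 0.39, a call lost with all 12 libraries in 1 fit (adjusted p = 0.0419). TFRC differed by 0.07. SLC11A2, IREB2 and ACO1, in which the strict pattern matched no element, were also called higher, and IREB2 and ACO1 lost their calls in that fit too. A lack of a match does not show that a gene has no such element. RNA levels do not show the translation on which 5′ elements act.

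The promoters of the members were searched for the motif of known regulators of HMOX1. NRF2, encoded by NFE2L2, activates HMOX1 with small MAF proteins, and the heme-binding repressor BACH1 competes with it at a motif of TGA and GC with any 4 bases between. The RefSeq table of promoters for GRCh38.p14, from 250 bases before to 50 after each start, listed 8 members. HMOX1 and FTH1 were the other members. On either strand the motif was found in the single SLC40A1 window and in 2 of 4 SLC11A2 windows, and 41.84% of all 35116 windows held it. These letters are therefore common, and their lack in a window says nothing of the factors.

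The other genes of the pathway were 60 in 6 lists. All 6 listed genes acting on HMOX1 transcription, 5 transcription factors and KEAP1, rose with H2O2 in WT cells, where 30.9% of all genes were called higher. MAFF rose by 2.43 on the log2 scale (adjusted p = 6.18e-23), MAFK by 1.14, MAFG by 1.04, BACH1 by 0.51, KEAP1, which holds NRF2 in the cytosol, by 0.32, and NFE2L2 by 0.23 (0.000161), a call lost with all 12 libraries in 1 fit (0.0346). In treated Atg7KO against treated WT cells, 5 of these 6 were called lower, against 27.9% of all genes. Among them were MAFK (-1.07, adjusted p = 2.39e-07), MAFF (-0.57) and NFE2L2 (-0.43, 5.89e-09), and BACH1 had 0.11 (0.0161). The MAFG call there was lost with all 12 libraries in 1 fit (adjusted p = 0.0122). MAFF was at 7.22 and 39.1 FPKM in untreated and treated WT cells and at 11.4 and 26.4 FPKM in Atg7KO cells.

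Heme synthesis had 6 of 8 genes called in WT cells, 1 higher and 5 lower, against 61% of all genes, 30.9% higher and 30.1% lower. The lower call of PPOX in WT cells was lost with DESeq2 (adjusted p = 0.0381) and with all 12 libraries in 1 fit (0.0299). ALAS1, the first and rate-limiting enzyme, rose by 0.53 and the others that changed, such as ALAD (-0.74), UROS (-0.71) and FECH (-0.41), fell. In Atg7KO cells 5 of 8 were called, 1 higher and 4 lower, against 26% of all genes, 13.6% higher and 12.4% lower. PPOX, which makes protoporphyrin, fell there from 3.37, 2.96 and 2.80 to 0.469, 0.687 and 0.651 FPKM, a log2 fold change of -2.34 (adjusted p = 0.000112). SLC48A1, a heme transporter of endosomes and lysosomes, rose by 1.63 (adjusted p = 0.000151) in Atg7KO and by 0.51 in WT cells. BLVRA, the other biliverdin reductase, had -0.06 in WT cells and was lower by 0.21 (adjusted p = 0.00454) in treated Atg7KO than in treated WT cells. That call was lost with DESeq2 (adjusted p = 0.0475), without a filter (0.0164) and with all 12 libraries in 1 fit (0.382), and after the length correction the difference was -0.03 (0.688).

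Of 14 genes of iron uptake, reduction and export, 8 were expressed well enough to test. All 8 were called in WT cells, 3 higher and 5 lower, against 61% of all genes. The STEAP2 call was lost with DESeq2 (adjusted p = 0.0153), with all 12 libraries in 1 fit (0.0149) and with the length correction (0.0368). The SLC25A37 call was lost with DESeq2 (adjusted p = 0.0387), without a filter (0.0624) and with all 12 libraries in 1 fit (0.281). HFE, which binds the transferrin receptor, fell by 1.17 in WT and by 1.32 in Atg7KO cells. STEAP3, an endosomal ferrireductase, was higher by 1.55 in untreated Atg7KO than in untreated WT cells (adjusted p = 0.000527) and fell with H2O2 by 2.17 in Atg7KO and 0.79 in WT cells. SLC39A14, an importer of iron not bound to transferrin, was higher by 1.18 in untreated Atg7KO cells and rose with H2O2 by 0.91 in WT cells. SLC25A37, the mitochondrial iron importer, was higher by 1.49 (adjusted p = 0.00128) in untreated and by 0.91 in treated Atg7KO cells. STEAP2, a further ferrireductase, was higher by 1.78 in treated Atg7KO than in treated WT cells, at no more than 2.18 FPKM.

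Of the genes that handle ferritin and sense iron, 4 of 7 tested were called in WT cells, 3 higher and 1 lower, against 61% of all genes. BMP6, an inducer of hepcidin, had a log2 fold change of 4.42 there but stayed below 1 FPKM in every group. NCOA4, the ferritin receptor, had 36.4, 33.5 and 34.1 FPKM in untreated and 49.7, 47.6 and 47.2 FPKM in treated WT libraries, a rise of 0.47 (adjusted p = 1.72e-12). In treated Atg7KO libraries it had 42.1, 43.0 and 43.4 FPKM, lower than in treated WT by 0.18 (adjusted p = 0.000171, and 0.0731 with all 12 libraries in 1 fit). FBXL5, which targets IREB2 protein for degradation, was lower by 0.59 in treated Atg7KO than in treated WT cells (adjusted p = 3.91e-11). The iron chaperone PCBP1 rose by 0.35 in WT cells, and PCBP2 had -0.03 (adjusted p = 0.596).

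Over the 6 lists, 35 of 50 tested genes were called in WT cells, 22 higher and 13 lower, and 16 of 47 in Atg7KO cells, 6 higher and 10 lower. In treated Atg7KO against treated WT cells 30 of 49 were, 11 higher and 19 lower, and at 0 h 4 of 47 were, all higher. These shares stand beside the 61%, 26%, 55.6% and 7.7% of all genes. The median log2 fold changes over the lists were 0.21, -0.29, -0.12 and 0.24 in that order, against -0.01, -0.03, 0.00 and 0.01 for all genes. Without untreated Atg7KO replicate 1, 39 of 47 listed genes were called in the Atg7KO response and 24 of 47 at 0 h, against 58.4% and 36.2% of all genes.

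**Figure D5:**
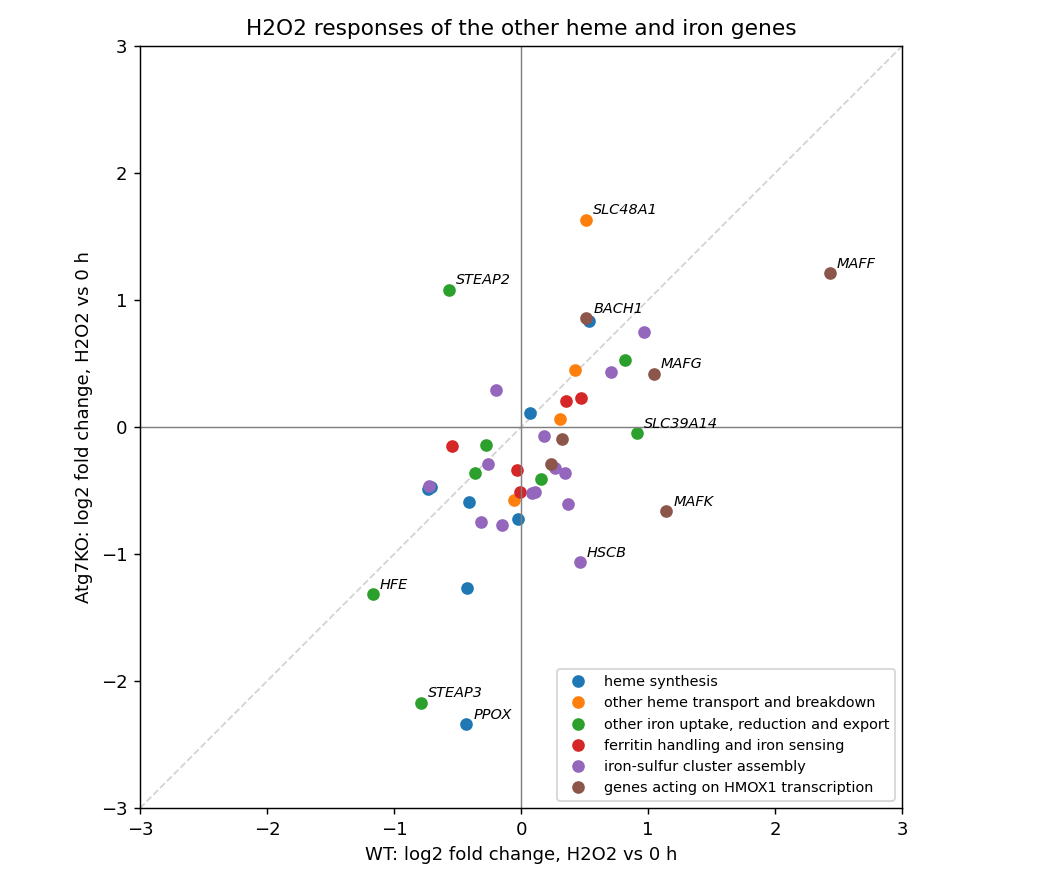
log2 fold change with H2O2 in WT cells (x axis) and in Atg7KO cells (y axis) of the listed genes with a mean FPKM above 1 in at least 1 group, coloured by list, with equal responses on the dashed line. SLC48A1 and STEAP2 lie above the line, and PPOX, STEAP3, MAFK and MAFF lie below it.

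Genes near HMOX1, FTH1 and SLC11A2 on the chromosome did not move as these members did in the comparisons given here. Within 1 Mb of HMOX1, 10 genes were tested in WT cells, with a median log2 fold change of -0.03, where HMOX1 had 2.67. Within 1 Mb of FTH1, 47 genes had a median of -0.09 in treated Atg7KO against treated WT cells, where FTH1 had 1.12. The 21 neighbours of SLC11A2 had 0.01 there and SLC11A2 had 0.96. Around TFRC the 31 neighbours had a median of -0.31, 16 of them called lower and 2 higher, and TFRC had 0.07. In the H2O2 response of Atg7KO cells the 17 neighbours of IREB2 had a median of 0.55, 6 of them called higher and 1 lower. IREB2 had 0.34 there, and all genes tested had -0.03. In the WT response the neighbours of IREB2 had 0.13 and IREB2 had -0.33.

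The genes whose profiles over the 12 libraries were most like those of HMOX1 and FTH1 were found by the root mean square difference of centred log2 CPM (reads scaled by the library total), among 10940 genes with a mean FPKM above 1 in all groups. For HMOX1 these were FSCN1 (0.17), FST (0.19) and CSF1 (0.20), where the median over all genes was 1.24. CSF1 was at 7.76, 59.0, 10.6 and 38.0 FPKM in untreated WT, treated WT, untreated Atg7KO and treated Atg7KO cells. For FTH1 they were SLC6A15 (0.11), TIMP1 (0.17) and TMX1 (0.17), where the median was 0.72. TIMP1 was at 35.3, 59.8, 96.6 and 116 FPKM in the same order.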

How the data were processed

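Total RNA of HLE-B3 cells was extracted with Trizol and made into NEBNext Ultra libraries. The submitters' processing notes name HISAT2 2.0.5 and featureCounts 1.5.0-p3 and the build GRCh38. The strand setting and the handling of reads that map to several places are not given in the sources used here. The authors deposited raw counts of reads for 58735 genes, without normalization, and FPKM values made from the same counts. Each FPKM library equalled its count over gene length and library total, times 1 factor between 0.949 and 1.02. Library totals were 15602183 to 17659496 reads (median 17205174). With 3 replicates a group, precision was limited by the spread between replicates, and for SLC40A1 by its 20 to 61 reads.

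Samples were grouped by genotype and treatment from their labels. Counts were tested with edgeR 4.0.16 in R 4.3.3 (filterByExpr with a minimum count of 10, TMM, robust quasi-likelihood fit) on the 6 libraries of each pair of groups, and on all 12 for the interaction. This replaces the DESeq2 test of the study. P-values were adjusted by Benjamini-Hochberg over all genes tested and called under 0.01. The stricter rule adds a log2 fold change beyond 1 and a mean FPKM above 1 in at least 1 group, as in the study's methods. FPKM ratios were tested by exact two-sided permutation in scipy 1.17.1. Other settings were DESeq2 1.42.0, RLE scaling, no filter, 1 fit of all 12 libraries, a block for replicate number, an offset for gene length (lowess, span 0.3) and each library left out in turn.

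The members and gene lists were chosen with earlier results of these data known. Named were all members, 7 listed genes (NCOA4, FBXL5, PCBP1, PCBP2, BLVRA, BACH1 and NFE2L2), up to 12 further listed genes that passed all 3 thresholds, ATG7, genes that overlap a member, and the 3 nearest profiles of each member that passed all thresholds in a pair of groups. Other listed genes, such as ALAS1, ALAD, UROS, FECH and KEAP1, were named after their values were seen. So were the markers SIX3, CRYGS, PAX6, CRYAB, COL1A1, COL1A2, COL3A1, PDGFRA, DCN, LUM and PDGFRB. A listed gene that met this rule is not reported here. No other columns held per-sample values. Transcripts and UTRs were those of GENCODE release 29, and promoters those of RefSeq.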

Additional observations from a re-analysis of the deposited data

Results flagged for a closer look

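The H2O2 response differed between Atg7KO and WT cells in 12 of the 50 listed genes tested, by the interaction test of edgeR at an adjusted p under 0.01, against 14% of all genes, and each is given as the Atg7KO minus the WT log2 fold change. Of the transcription factors acting on HMOX1, MAFK had -1.81 (adjusted p = 4.45e-05), MAFF -1.22 (0.000252) and NFE2L2 -0.53 (0.00667). In heme synthesis and transport, PPOX had -1.91 (adjusted p = 0.00016) and SLC48A1 1.12 (0.000739). Among genes of iron uptake and reduction, STEAP2 had 1.65 (adjusted p = 0.000479), STEAP3 -1.38 (0.00026) and SLC39A14 -0.96 (7.59e-05). Of ferritin handling and iron sensing, FBXL5 had -0.50 (adjusted p = 0.00275) and MMS19, which brings iron-sulfur clusters to proteins, 0.40 (0.00919). Of cluster assembly, HSCB had -1.52 (adjusted p = 0.003) and NUBP1 -0.62 (0.00782). Over 17 other settings, libraries left out included, MAFK, MAFF, PPOX, SLC48A1, STEAP2, STEAP3 and SLC39A14 passed in all 17, HSCB in 15, FBXL5 in 12, NFE2L2 in 8, MMS19 in 4 and NUBP1 in 3.

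MAFK, a small MAF protein gene, had a mean of 4.59 FPKM in untreated and 10.2 FPKM in treated WT cells, and of 7.70 FPKM in untreated and 4.88 FPKM in treated Atg7KO cells. It thus rose with H2O2 in WT cells and fell in Atg7KO cells.

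Among the members, IREB2 had a difference in response of 0.67, because every treated WT library lay below every untreated one and every treated Atg7KO library above every untreated one. The interaction test of edgeR missed the threshold (adjusted p = 0.0138). IREB2 passed with DESeq2 (adjusted p = 0.00334), without a filter (0.000136), and without untreated Atg7KO replicate 1 (9.21e-08) or 3 (0.0039). After the correction for gene length the difference in response was 0.33 (adjusted p = 0.026), and the WT response was -0.08 (0.237).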

How the results depend on the processing

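Counts of called members in the 4 comparisons, in the order WT response, Atg7KO response, untreated Atg7KO against WT and treated Atg7KO against WT, were 8, 2, 2 and 7. Of all genes, 9712, 4025, 1182 and 8847 were called in the same order. All 12 libraries in 1 fit gave 5 members for the WT response, 4 for the Atg7KO response and 3 for treated Atg7KO against WT. That fit called 6829, 6528 and 4876 of all genes in these 3 comparisons. The correction for gene length gave 4 members and 5045 of all genes for the Atg7KO response. The interaction gave 0 members, but 3 with DESeq2 and 2 without a filter, where 2366, 3538 and 4054 of all genes were called. Leaving out 1 library gave 7 to 8, 2 to 9, 1 to 7 and 7 members in the order of the 4 comparisons, and 0 to 6 for the interaction, the highest counts without untreated Atg7KO replicate 1. Without that library 58.4% of all genes were called in the Atg7KO response, 36.2% at 0 h and 34.1% in the interaction. The same-numbered libraries deviated from their group means with correlations of -0.04 to 0.10, so no pairing by number was seen. Correlations over all genes cannot exclude a pairing that acts on some of them. With the replicate number as a block, 1 member and 499 of all genes were called in untreated Atg7KO against WT. SLC11A2 missed the threshold there (adjusted p = 0.0231), and no other member call changed.

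Listed genes called in the Atg7KO response were 16, and 28 with all 12 libraries. At 0 h they were 4, and 9 with DESeq2, 7 without a filter, 14 with all 12 libraries and 7 with the length correction. For treated Atg7KO against WT they were 30, and 16 with all 12 libraries. With all 12 libraries in 1 fit, all genes called went from 4025 to 6528 in the Atg7KO response. In treated Atg7KO against WT they went from 8847 to 4876, and at 0 h from 1182 to 1803 with the length correction. Leaving out 1 library gave 31 to 34 listed genes for the WT response, 7 to 39, 2 to 24 and 26 to 30 for the others, and 7 to 24 for the interaction.

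Signs turned with the length correction for FTL in the WT response (-0.10), BLVRB at 0 h (-0.10) and with H2O2 (0.068), TFRC with H2O2 (-0.042), and BLVRB (0.14), FTL (0.22) and FTH1 (0.038) in the interaction, where TFRC turned without a filter (0.0081). None of these values passed the test, and the cause was not tested. With 1 library left out, the Atg7KO response ran from -0.10 to 0.26 for HMOX2, -0.16 to 0.34 for BLVRB and -0.089 to 0.29 for FTL, the difference at 0 h from -0.23 to 0.27 for BLVRB, and the interaction from -0.37 to 0.13 for BLVRB, -0.18 to 0.20 for FTL and -0.10 to 0.039 for TFRC. The log2 difference of the FTL to FTH1 ratio in the Atg7KO response ran from -0.21 to 0.0012, and that of TFRC to FTH1 in the WT response from -0.017 to 0.023. These ratios carry no correction for gene length, under which TFRC rose by 0.65 and FTH1 by 0.30 in WT cells. Of the 290 other values of members with no library left out, 253 kept their direction and their side of the threshold, 15 passed it anew, 14 lost it and 8 turned.

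Depth limits SLC40A1, whose 20 to 61 reads give intervals as wide as -0.90 to 0.33.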
